A study of Mus musculus with 40 samples.

Results

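The genes described here are 40 genes of cell division, chosen by symbol from the 47729 gene symbols of the count tables. They act in G2 and M phase, at the spindle, at the kinetochore, in chromosome condensation and in cytokinesis, and all 40 were found. RNA came from one inguinal mammary gland per mouse, freed of its lymph node and cut from the region between teat and node. The mice were Balb/cJ animals ovariectomised at 21 days of age and allowed 7 days to recover, and this holds for controls as well as treated mice. Controls ate a defined AIN 93G based diet. Estrogen-treated mice ate that diet and drank water with 200 nM estrogen, and were killed 60 h or 84 h after treatment began. CLA-fed mice ate the diet with CLA (conjugated linoleic acid, a group of fatty acid isomers) as a fat at 2.7%, and were killed at 108 h or 132 h. A separate control group was taken at each of the 4 times, which gave 8 groups of 5 mice and 40 libraries. The comparison addresses growth of the gland without ovarian estrogen, as the series title states it. Because the estrogen and CLA groups were taken at different times, each was set against the controls of its own time.

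A dividing cell makes mitotic transcripts in a wave that begins in S phase, peaks in G2 and M phase and ends at division, when many of the proteins are destroyed. Cyclin B with its kinase Cdk1 drives entry into mitosis, the chromosomes are condensed and attached to the spindle, the checkpoint holds the cell until attachment is complete, and cytokinesis separates the daughter cells. The immature mammary gland is a small epithelial tree within a fat pad. In intact animals, estrogen from the ovary drives its ducts to grow, and the RNA of mitotic genes rises where cells cycle.

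Total counts per library ran from 18183713 to 40026800, and a member of the 40 had between 12 and 5875 counts in any library, so none was at 0. Levels are given as CPM, each gene's share of its library's counts scaled with TMM factors over all 40 libraries, with mean ± SD over 5 mice. Fold changes are log2 values from edgeR's quasi-likelihood test, with ± for the standard error, and adjusted p is the Benjamini-Hochberg value over all genes tested. A gene is said to rise where its adjusted p was below 0.05. Whole tissue was sampled, so more dividing cells and more mitotic RNA per cell cannot be told apart. Luminal epithelial markers were detected in all 40 libraries (14 of 14 genes, none at 0 in any library). The members Nusap1, Ube2c, Ccna2, Cdc20, Cdca8, Tacc3, Ncapg, Prc1 and Kif20a overlap a protein-coding gene on the other strand, and whether the counting used strand is not stated.

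Some libraries stood apart. Estrogen-treated mouse 4 at 60 h was the lowest of its group for all 40 members. It was above the highest control for none of them, lying within the control range for 31 and below the lowest control for 9. Another 10 libraries carried RNA of skin and hair (mean of 21 markers above 1.5 log2 CPM, nearest values 1.42 below and 1.86 above). These were controls 1, 2 and 5 at 108 h, controls 1, 2 and 3 at 132 h, estrogen-treated mouse 5 at 60 h and estrogen-treated mice 2, 3 and 5 at 84 h. The animal numbers in the labels fall into 4 runs. All 10 estrogen-treated mice belong to a run that holds no control, so that run and estrogen cannot be told apart, while CLA-fed mice share runs with their own controls.

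All 40 mitotic genes were higher on average with either treatment at every time, and the rise with CLA was the larger. Averaged over the 40 genes, the level was 2.16 ± 0.21 log2 CPM in controls at 60 h and 3.06 ± 0.65 with estrogen. At 84 h it was 2.29 ± 0.22 in controls and 3.42 ± 0.21 with estrogen. Controls at 108 h had 2.67 ± 0.34, and CLA-fed mice had 4.53 ± 0.25. At 132 h the values were 2.45 ± 0.26 and 4.62 ± 0.19. The groups therefore ranked, from low to high, as controls at 60 h, 84 h, 132 h and 108 h, estrogen at 60 h and 84 h, and CLA at 108 h and 132 h. The 2 estrogen groups overlapped (2.02 to 3.71 and 3.17 to 3.62), as did the 2 CLA groups (4.14 to 4.77 and 4.40 to 4.89), and no CLA library came as low as any other library. The group with the highest mean was CLA at 132 h for 38 members and CLA at 108 h for 2.

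**Figure D1:**
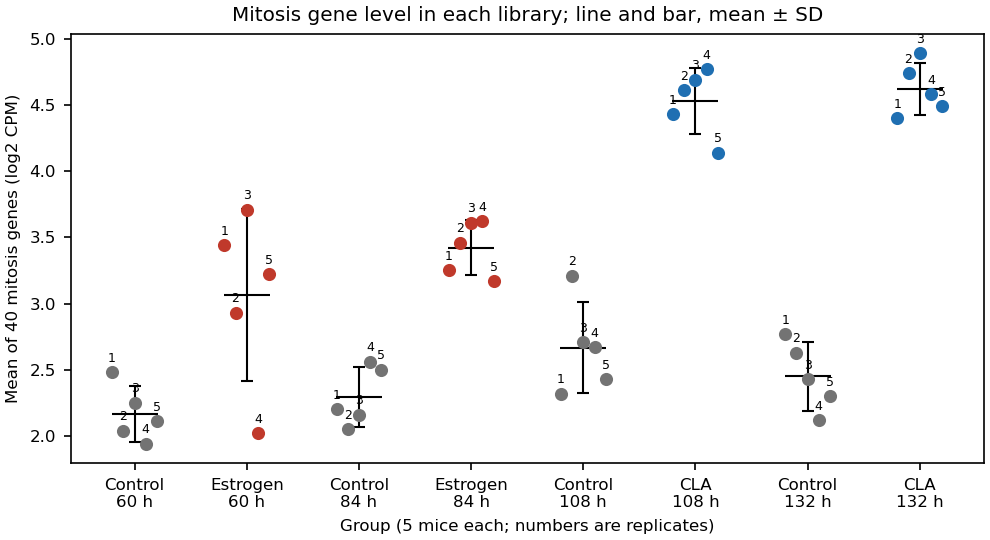
Mean of the 40 mitosis genes in each library (log2 CPM, vertical axis) for the 8 groups of 5 mice, with the group mean as a line and the SD as a bar; numbers are replicates. The 10 CLA libraries lie between 4.14 and 4.89, above all others, and estrogen replicate 4 at 60 h lies at 2.02, between its controls' 1.94 and 2.48.

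With estrogen at 60 h, 34 of the 40 members rose, against 4.07% of the 17248 genes tested. The median log2 fold change of the 40 was 1.05 (a 2.07-fold rise), and that of all genes was -0.002. The 6 that did not pass were Mybl2, Bub1, Prc1, Cenpa, Smc2 and Smc4. The unadjusted p was below 0.05 for all 40, and for 3968 of the 17248 genes tested. The count moved with the setting. It was 5 when the 2 groups were fitted alone, 17 with no filter on low counts, and 11 or 7 with limma on log2(RPKM + 0.1) or log2(RPKM + 1). Leaving out 1 library gave 12, 15, 7 or 19 without controls 2, 3, 4 or 5, gave 6, 11 or 11 without estrogen-treated mice 1, 3 or 5, and gave 39 without mouse 4. The share of all genes called in each of these other runs is not given here, and 4.07% does not apply to them. No member had every treated library above every control library, while 3.83% of all genes did.

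With estrogen at 84 h, 39 members rose, against 3.45% of 17180 genes tested, and the median was 1.17 (2.25-fold). Cenpa was the exception. The same 39 were higher in every treated library than in any control library, which held for 5.54% of all genes. Leaving out single libraries gave 37 to 39, and the shares of all genes in those runs are not given here. In the fit of all 40 libraries, the test of a difference between the 60 h and 84 h estrogen changes passed for 0 members (1 of 17852 genes was called, 0.00560%). In edgeR 0 members had an unadjusted p below 0.05, and DESeq2 also called 0. Differences ran from -0.11 for Ccnb1 (95% interval -1.0 to 0.77) to 0.46 for Aurka (95% interval -0.01 to 0.92).

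With CLA, all 40 members rose at 108 h, against 24.9% of genes tested, and all 40 rose at 132 h, against 27.0%. The medians were 1.90 (3.73-fold) and 2.20 (4.59-fold), and those of all genes -0.013 and -0.029. Every treated library was above every control library for 39 members at 108 h (17.7% of all genes), Mybl2 being the exception, and for 40 at 132 h (21.2%). Within runs of animal numbers, 36 and 40 members rose at 108 h (medians 1.79 and 1.95), and 40 in the first run at 132 h (median 1.95). The shares of all genes called within runs are not given here, and 24.9% and 27.0% do not apply to them. The second run at 132 h holds 1 CLA-fed mouse and 2 controls. Its median was 2.33, and its count of 31 rests on the spread between the 2 controls, with the lone treated mouse assumed to vary like them, so it is no replicate check. The test of a difference between the 108 h and 132 h CLA changes passed for 0 members (0 of 17852 genes called, 0.00%). In edgeR 0 members had an unadjusted p below 0.05, and DESeq2 called 0. Differences ran from -0.10 for Ankle1 (95% interval -0.86 to 0.65) to 0.72 for Bub1 (95% interval -0.08 to 1.51).

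Across the 4 groups of untreated mice, 1 of the 40 members differed, against 13.4% of all genes. It was Ccnb1, whose largest gap between control times was 1.10 on the log2 scale (adjusted p = 0.0479). Its control means were 1.02 ± 0.396 CPM at 60 h, 1.24 ± 0.234 at 84 h, 2.20 ± 0.848 at 108 h and 1.69 ± 0.624 at 132 h. At an unadjusted p below 0.05, 14 members differed, as did 5363 of the 17852 genes tested. The lowest control mean was that at 60 h for 32 members.

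**Figure D2:**
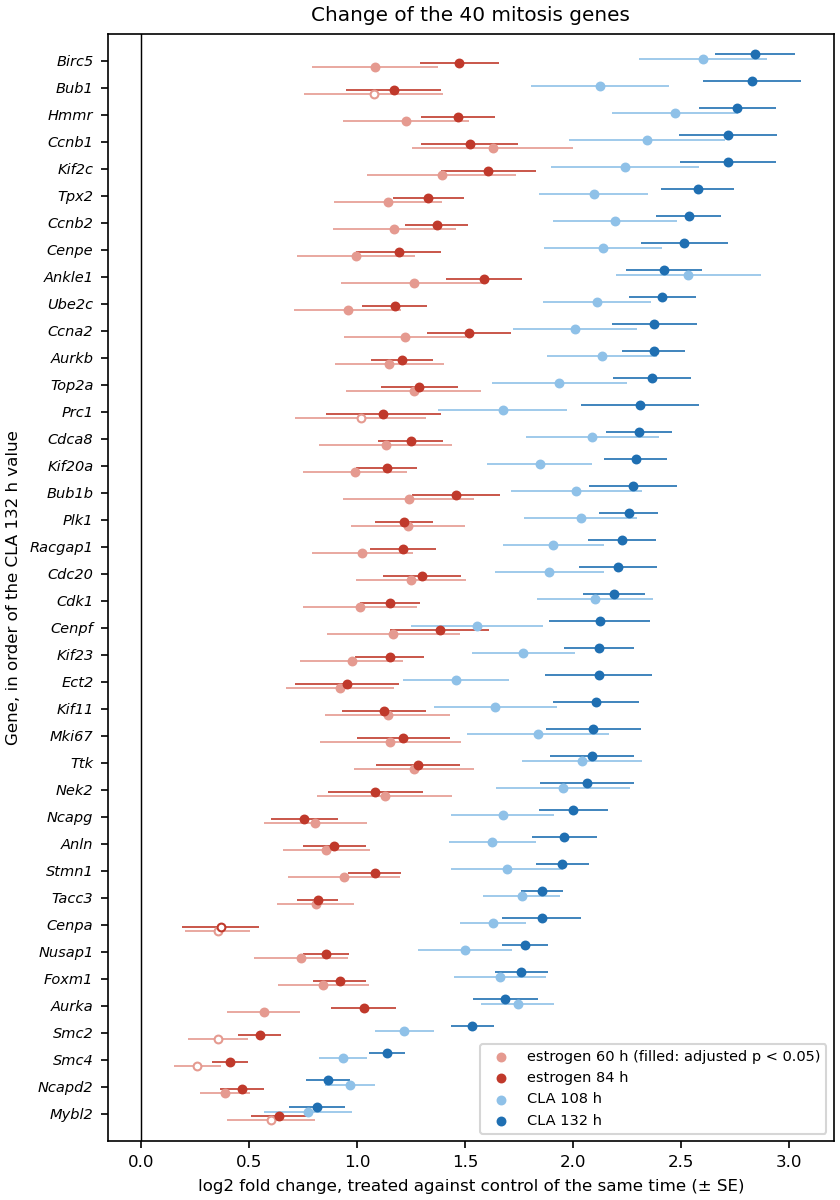
Log2 fold change of each of the 40 genes (horizontal axis, ± SE) with estrogen at 60 h and 84 h and CLA at 108 h and 132 h, each against the controls of the same time; open points did not pass an adjusted p of 0.05. CLA points lie right of the estrogen points of the same gene, from Birc5 at the top to Mybl2 at the bottom.

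Many mitotic genes share a promoter layout, so the promoters are shown for members on which the comparison turns. The cell cycle genes homology region (CHR, TTTGAA) is known to bind MuvB complexes, of which DREAM represses these genes in resting cells. CCAAT boxes nearby bind NF-Y. RefSeq promoters (build GRCm38.p6, 250 bases before to 50 after the start) matched 33 of the 40 members. On either strand, TTTGAA was found in 25 of the 33 (75.8%), against 18.1% of 27025 promoters and 12.4% of the 12257 promoters of genes tested. The variant TTCGAA was found in 3 (9.1%, against 1.6% and 2.0%). CCAAT occurred in 26 (78.8%, against 37.9% of both sets). Both TTTGAA and CCAAT stood in 22 (66.7%, against 7.1% and 5.2%). Between 60 bases before and 50 after the start, 22 members held TTTGAA, against 5.6% and 3.5%. The palindromic estrogen response element was in 0 of the 33, against 0.1% and 0.0%. The 4 stretches below run from 180 bases before the start through the first 30 transcribed bases, 5′ to 3′ on the gene's strand, with TTTGAA and CCAAT, or ATTGG for the other strand, in capitals.
Cdk1: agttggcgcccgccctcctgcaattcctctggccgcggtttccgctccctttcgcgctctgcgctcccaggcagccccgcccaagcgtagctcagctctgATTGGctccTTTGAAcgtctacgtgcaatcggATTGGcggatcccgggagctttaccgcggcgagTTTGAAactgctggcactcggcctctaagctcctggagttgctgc
Ccnb2: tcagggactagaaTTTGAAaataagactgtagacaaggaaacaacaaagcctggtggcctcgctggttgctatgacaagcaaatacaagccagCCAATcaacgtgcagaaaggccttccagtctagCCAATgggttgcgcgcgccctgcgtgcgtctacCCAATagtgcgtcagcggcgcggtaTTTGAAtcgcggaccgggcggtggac
Cenpa: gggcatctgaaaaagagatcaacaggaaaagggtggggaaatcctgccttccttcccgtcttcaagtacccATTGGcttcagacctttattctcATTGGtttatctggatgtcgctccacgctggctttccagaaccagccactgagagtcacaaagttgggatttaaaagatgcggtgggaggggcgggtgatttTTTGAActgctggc
Birc5: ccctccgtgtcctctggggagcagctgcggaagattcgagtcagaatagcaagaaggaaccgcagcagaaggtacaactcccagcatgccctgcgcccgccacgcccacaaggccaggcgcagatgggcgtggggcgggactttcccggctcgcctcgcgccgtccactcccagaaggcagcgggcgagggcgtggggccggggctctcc
Cdk1 (chr10:69352883-69353092, minus strand) and Ccnb2 (chr9:70421525-70421734, minus strand) are shown as members with both motifs that rose in all 4 comparisons. Cenpa (chr5:30666706-30666915, plus strand) has both too, with TTTGAA 16 bases after the start, and rose in the CLA comparisons but did not pass in those with estrogen. Birc5 (chr11:117849057-117849266, plus strand) has neither and had the largest rise with CLA. The 25 members with TTTGAA had a median log2 fold change of 1.89 with CLA at 108 h, and the 8 without it 2.04. With estrogen at 84 h the medians were 1.21 and 1.13. A match is a stretch of letters and not a measured site.

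Mki67, whose product Ki-67 coats mitotic chromosomes and is the usual histological marker of cycling cells, had 31.7, 18.7, 20.3, 18 and 20.4 CPM in controls 1 to 5 at 60 h. Estrogen-treated mice of that time had 62.2, 40.5, 69.7, 17.8 and 54.1. Mouse 4 lay below every control and the other 4 lay above all of them, and the gene rose by 1.15 ± 0.33 (adjusted p = 0.0443). At 84 h the controls had 20.9, 17.2, 24, 30.6 and 29.7 and the treated mice 49.3, 63, 63.3, 68.1 and 43.7, with no overlap and a rise of 1.22 ± 0.21 (adjusted p = 0.00258). Controls at 108 h had 21.4, 66.9, 34.9, 33.9 and 27.8, where control 2 was the highest of all 20 controls. The CLA-fed mice had 120, 142, 157, 146 and 95.6, all above it, and the rise was 1.84 ± 0.33 (adjusted p = 0.000168). At 132 h controls had 44.9, 40.2, 30.3, 18.9 and 23.3 and CLA-fed mice 114, 156, 170, 125 and 124, a rise of 2.09 ± 0.22 (adjusted p = 2.52e-07).

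The cyclins and their kinase were Ccna2 (cyclin A2, active from S phase to early mitosis), Ccnb1 and Ccnb2 (cyclins B1 and B2) and Cdk1, the kinase they switch on. All 4 rose in all 4 treatment comparisons. Fold changes were 1.01 to 1.63 with estrogen at 60 h, 1.15 to 1.52 at 84 h, 2.01 to 2.34 with CLA at 108 h and 2.19 to 2.72 at 132 h. Cdk1, whose promoter is printed above, lies on chromosome 10 (69335146 to 69352938, minus strand, GRCm38). It had 6.17, 6.65, 6.67, 4.29 and 4.16 CPM in controls 1 to 5 at 60 h and 14.1, 9.15, 16.6, 4.33 and 12.6 with estrogen. Mouse 4 again sat among the controls, and the other 4 were above all of them (rise of 1.01 ± 0.27, adjusted p = 0.0319). At 84 h, controls had 4.99, 5.3, 4.61, 7.04 and 8 and treated mice 10.8, 14.9, 14.8, 15.8 and 11, a rise of 1.15 ± 0.14 (adjusted p = 7.42e-05) with no overlap. In controls at 108 h Cdk1 stood at 6.59, 9.15, 6.86, 8.09 and 6.72, and in CLA-fed mice at 27.8, 35.2, 36.2, 39.5 and 21.6. The lowest CLA value was above the highest control, and the rise was 2.10 ± 0.27 (adjusted p = 4.09e-06). The values at 132 h were 8.05, 7.66, 6.87, 8.12 and 6.7 in controls and 31.8, 34.3, 40.5, 33.2 and 33.7 with CLA, a rise of 2.19 ± 0.14 (adjusted p = 3.97e-10).

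Ccnb1 had the largest rise of the 40 with estrogen at 60 h, 1.63 ± 0.37 (adjusted p = 0.0186). Its controls had 1.64, 0.798, 1.15, 0.618 and 0.903 CPM and the treated mice 3.78, 2.31, 5.32, 0.926 and 3.65, with mouse 4 inside the control range. At 84 h the controls had 1.46, 0.843, 1.24, 1.29 and 1.35 and the treated mice 2.87, 3.96, 4.38, 3.93 and 2.92, and the groups were apart (rise of 1.52 ± 0.23, adjusted p = 0.000408). With CLA at 108 h the 5 mice had 10.8, 12, 10.2, 15.2 and 7.88, and their controls 1.59, 3.54, 1.98, 2.47 and 1.44. CLA-fed mice at 132 h had 10.5, 12.2, 14, 11.6 and 9.06, and controls 2.21, 2.02, 2.19, 1.17 and 0.881. The rises were 2.34 ± 0.36 (adjusted p = 3.06e-05) and 2.72 ± 0.23 (adjusted p = 8.66e-09). A pseudogene of its name and of Ccnb2 is annotated, and how the counting treated shared reads is not given in the sources used here.

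Of the transcription factors, Foxm1 activates genes of G2 and M phase, and Mybl2 (B-Myb) joins the MuvB core at the same genes. Foxm1 rose in all 4 comparisons. Its values at 60 h were 7.57, 5.22, 6.81, 6.38 and 6.87 CPM in controls and 14.1, 10.6, 17.2, 6.02 and 11.5 with estrogen, and at 84 h they were 5.94, 6.33, 6.89, 7.88 and 7.72 and 12.8, 13.2, 14.7, 13.5 and 12.2. Mouse 4 at 60 h was within the controls, and the groups at 84 h did not overlap (rises of 0.84 ± 0.21, adjusted p = 0.0272, and 0.92 ± 0.12, adjusted p = 0.000147). Controls at 108 h had 6.23, 11.5, 8.98, 8.03 and 8.59 and CLA-fed mice 23.9, 30.6, 32.2, 29 and 21.4. At 132 h the values were 10.4, 8.63, 7.14, 6.54 and 6.87 and 22.8, 30.3, 29.8, 24.8 and 29.5. CLA-fed mice were above all controls at both times, with rises of 1.66 ± 0.21 (adjusted p = 3.76e-06) and 1.76 ± 0.12 (adjusted p = 8.22e-10). Foxm1 overlaps 2 annotated genes on its own strand, Tex52 and Gm44596.

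Mybl2 had the smallest rise of the 40 with CLA at both times, and it was 1 of 2 members, with Cenpf, for which the difference between the treatments did not pass the test in either pair of times. Its values at 60 h were 3.35, 2.66, 3.26, 3.4 and 3.45 CPM in controls and 4.58, 4.86, 6.84, 2.94 and 5.36 with estrogen (0.60 ± 0.20, adjusted p = 0.0803). At 84 h they were 3.41, 3.47, 3.29, 3.95 and 2.83 and 5.64, 5.13, 4.96, 6.55 and 4.38, a rise of 0.64 ± 0.13 (adjusted p = 0.00634) without overlap. Controls at 108 h had 3.08, 6.08, 3.74, 3.66 and 4.1 and CLA-fed mice 6.06, 8.39, 8.43, 7.23 and 5.15. Control 2 exceeded 2 of the CLA-fed mice, and the rise was 0.77 ± 0.20 (adjusted p = 0.00388). At 132 h controls had 4.75, 4.23, 3.69, 3.68 and 3.44 and CLA-fed mice 6.8, 8, 8.06, 6.2 and 6.48, a rise of 0.82 ± 0.13 (adjusted p = 2.62e-05). The CLA change exceeded the estrogen change by 0.17 ± 0.29 at the early times (95% interval -0.43 to 0.77) and by 0.18 ± 0.18 at the late times (95% interval -0.21 to 0.56).

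The mitotic kinases were Plk1, which acts from mitotic entry to cytokinesis, Aurka (Aurora A, at the spindle poles) and Nek2, which separates centrosomes. All 3 rose in all 4 comparisons. Plk1 had 3.19, 2.16, 2.55, 2.33 and 2.03 CPM in controls at 60 h and 7.72, 4.46, 7.9, 2.42 and 6.66 with estrogen. At 84 h it had 2.72, 2.44, 2.52, 3.05 and 3.68 and 5.54, 7.1, 7.87, 7.99 and 5.43. Mouse 4 at 60 h fell within its controls, the groups at 84 h were apart, and the rises were 1.24 ± 0.26 (adjusted p = 0.0138) and 1.22 ± 0.13 (adjusted p = 3.49e-05). Its controls at 108 h had 2.72, 5.52, 3.74, 3.63 and 3.99 and the CLA-fed mice 14.4, 17.2, 19.2, 18.5 and 11.1. At 132 h the values were 3.62, 4.14, 3.46, 3.33 and 3.17 and 14.7, 17.9, 19.7, 16.3 and 17.9. The lowest CLA value was 11.1 and the highest control value 5.52, and the rises were 2.04 ± 0.26 (adjusted p = 3.71e-06) and 2.26 ± 0.14 (adjusted p = 1.75e-10). Aurka changed by 0.57 with estrogen at 60 h and 1.03 at 84 h, and by 1.74 and 1.69 with CLA. Nek2 changed by 1.13, 1.08, 1.95 and 2.06 in the same order.

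**Figure D3:**
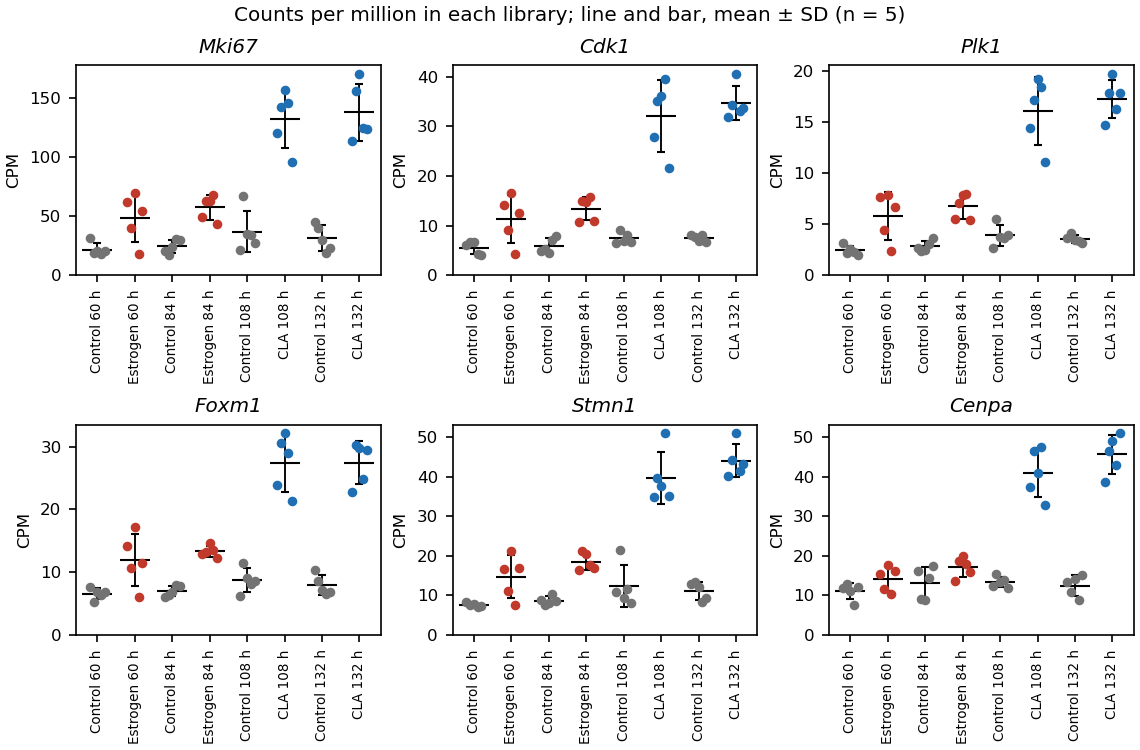
CPM in each library (points) for Mki67, Cdk1, Plk1, Foxm1, Stmn1 and Cenpa in the 8 groups, with mean and SD (n = 5); vertical axes are linear from 0. CLA libraries stand above all others for each of the 6 genes, and Cenpa is the gene whose estrogen groups overlap their controls at 84 h.

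The spindle checkpoint kinases Bub1 and Ttk (Mps1) and the pseudokinase Bub1b (BubR1) delay anaphase while kinetochores are unattached. Bub1b and Ttk rose in all 4 comparisons. Ttk was among the 3 largest rises with estrogen at 60 h, with 1.26 ± 0.28 (adjusted p = 0.0151). Bub1 narrowly missed the threshold at 60 h (1.08 ± 0.32, adjusted p = 0.0516) and rose in the other 3 comparisons. With CLA at 132 h its rise, 2.83 ± 0.23 (adjusted p = 5.26e-09), was the second largest of the 40. It also had the largest excess of CLA over estrogen of the 40 at the late times, 1.66 ± 0.31 (adjusted p = 0.000352). For Bub1b the excess there was 0.82, and for Ttk 0.80.

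Exit from mitosis depends on the anaphase-promoting complex, which Cdc20 activates and for which Ube2c is the ubiquitin-conjugating enzyme. Both genes rose in all 4 comparisons, by 1.25 and 0.96 with estrogen at 60 h and by 1.30 and 1.18 at 84 h. With CLA they rose by 1.89 and 2.11 at 108 h and by 2.21 and 2.41 at 132 h. Cdc20 had the higher value of the pair with estrogen at both times, and Ube2c with CLA at both times.

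The chromosomal passenger complex corrects faulty attachments and guides cytokinesis. Its genes among the 40 were the kinase Aurkb (Aurora B), Birc5 (survivin) and Cdca8 (borealin). All 3 rose in all 4 comparisons. Birc5, on chromosome 11 (117849251 to 117855743, plus strand, GRCm38), had the largest rise of the 40 with CLA at both times. It had 3.71, 2.13, 3.14, 2.09 and 2.55 CPM in controls at 60 h and 7.32, 4.73, 9.21, 2.4 and 5.46 with estrogen (1.08 ± 0.29, adjusted p = 0.0357). At 84 h it had 2.14, 2.48, 2.32, 3.89 and 2.83 and 5.79, 7.42, 9.24, 9.13 and 6.89 (1.47 ± 0.18, adjusted p = 7.67e-05). Estrogen-treated mouse 4 at 60 h lay in the control range, and at 84 h the groups were apart. Birc5 in controls at 108 h stood at 2.96, 6.64, 3.45, 3.83 and 3.34, and in CLA-fed mice at 22.2, 25.7, 25, 31.5 and 18.5. Controls at 132 h had 4.51, 4.07, 3.46, 3.39 and 2.38 and CLA-fed mice 21.9, 25.1, 32.7, 26.2 and 24.5. The lowest CLA-fed mouse had 18.5 CPM and the highest control 6.64, and the rises were 2.60 ± 0.30 (adjusted p = 1.11e-06) and 2.84 ± 0.19 (adjusted p = 4.02e-10). Aurkb rose by 1.15 to 2.37 and Cdca8 by 1.13 to 2.31 over the 4 comparisons.

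At the centromere, Cenpa is the histone H3 variant that marks the site, and Cenpe and Cenpf are large kinetochore proteins. Of the 40 members, Cenpa had the highest ratio of CLA to estrogen change on the log2 scale. Its values at 60 h were 11.7, 12.7, 11, 7.52 and 12.1 CPM in controls and 15.3, 11.6, 17.6, 10.2 and 16 with estrogen, and at 84 h 16, 9.14, 8.74, 14.3 and 17.4 and 13.5, 18.7, 19.8, 18 and 15.8. Groups overlapped at both times, and the changes of 0.35 ± 0.15 (adjusted p = 0.163) and 0.37 ± 0.18 (adjusted p = 0.241) did not pass. Controls at 108 h had 12.2, 15.3, 13.3, 13.8 and 11.9 and CLA-fed mice 37.4, 46.4, 40.9, 47.5 and 32.9. At 132 h they had 13.4, 10.7, 14.1, 8.65 and 15.1 and 38.6, 46.5, 49.1, 42.9 and 51. Every CLA-fed mouse was above every control of any time, and the rises were 1.63 ± 0.15 (adjusted p = 8.19e-08) and 1.85 ± 0.18 (adjusted p = 8.41e-08). The difference between the changes, CLA minus estrogen, was 1.27 ± 0.21 (adjusted p = 0.000195) at the early times and 1.48 ± 0.25 (adjusted p = 0.00017) at the late times. Cenpe rose in all 4 comparisons, by 0.99, 1.19, 2.14 and 2.52 in the order estrogen 60 h, estrogen 84 h, CLA 108 h and CLA 132 h. Cenpf rose in all 4 too, by 1.17, 1.38, 1.56 and 2.12 in that order, and its CLA excess did not pass at either pair of times (0.39 ± 0.43, adjusted p = 0.525, and 0.74 ± 0.32, adjusted p = 0.0761).

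Of the chromosome structure genes, Top2a (topoisomerase II alpha) untangles sister chromatids, and Smc2, Smc4, Ncapd2 and Ncapg are subunits of condensin, which compacts them. Top2a rose in all 4 comparisons, by 1.26, 1.29, 1.94 and 2.37. Among the condensin genes, Smc4, Smc2 and Ncapd2 were among the 4 smallest changes of the 40 in each comparison, and Ncapg was not. Smc4 had the smallest change with estrogen at 60 h, 0.26 ± 0.11 (adjusted p = 0.156), where controls had 45.4, 43.9, 47, 40.5 and 45.8 CPM and treated mice 59.1, 51.1, 64.5, 41.1 and 52.1. The other 4 treated mice were above all controls, and mouse 4 had the second lowest value of the 10. At 84 h the values were 40.7, 40.8, 37.7, 49.2 and 46.8 and 52.6, 62.2, 58.2, 61 and 54.9, without overlap (rise of 0.41 ± 0.08, adjusted p = 0.00634). Controls had 43.4, 62.3, 48.1, 50 and 47 at 108 h and 49, 45.3, 42.5, 40.4 and 46.5 at 132 h. CLA-fed mice had 98.1, 87.3, 95.3, 113 and 84.7 and 97.3, 103, 118, 99 and 84.2, all above the controls, with rises of 0.94 ± 0.11 (adjusted p = 1.2e-06) and 1.14 ± 0.08 (adjusted p = 1.77e-09). Smc2 changed by 0.36 ± 0.14 (adjusted p = 0.124) with estrogen at 60 h and rose by 0.55 at 84 h, 1.22 at 108 h and 1.53 at 132 h. Ncapd2 rose by 0.47 ± 0.10 (adjusted p = 0.0108) with estrogen at 84 h, 0.97 ± 0.12 (adjusted p = 1.53e-06) with CLA at 108 h and 0.87 ± 0.10 (adjusted p = 7.92e-07) at 132 h. Ncapg rose by 0.81, 0.76, 1.68 and 2.0.

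Among the spindle motors, Kif11 (Eg5) pushes the poles apart, Kif20a (Mklp2) carries the passenger complex to the central spindle, and Kif2c (MCAK) depolymerises microtubules at kinetochores. All 3 rose in all 4 comparisons, and Kif2c most. Kif2c at 60 h had 2.8, 1.5, 1.73, 0.892 and 0.936 CPM in controls and 4.68, 3.39, 7.1, 1.52 and 4.13 with estrogen (1.39 ± 0.34, adjusted p = 0.0263). At 84 h it had 1.98, 1.27, 1.6, 1.96 and 1.63 and 4.13, 4.58, 7.39, 6 and 4.07 (1.61 ± 0.22, adjusted p = 0.000203), the largest estrogen change of that time. Only mouse 4 at 60 h overlapped its controls. In controls at 108 h Kif2c had 2.49, 3.95, 2.41, 2.64 and 2.19 and in CLA-fed mice 11.3, 15.5, 15.4, 14.1 and 8.34 (2.24 ± 0.34, adjusted p = 2.7e-05). At 132 h it had 2.86, 3, 2.07, 1.11 and 2.11 and 12.3, 15.3, 17.6, 15 and 15.3 (2.72 ± 0.22, adjusted p = 6.25e-09). Kif11 rose by 1.14 and 1.12 with estrogen and by 1.64 and 2.10 with CLA. For Kif20a the 4 values were 0.99, 1.14, 1.85 and 2.29.

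The spindle assembly genes were Tpx2, which activates Aurora A on microtubules, Nusap1 and Hmmr, which bind spindle microtubules, Tacc3, which stabilises kinetochore fibres, and Stmn1 (stathmin), which binds free tubulin. All 5 rose in all 4 comparisons. Fold changes spanned 0.74 to 1.23 with estrogen at 60 h, 0.82 to 1.47 at 84 h, 1.5 to 2.47 with CLA at 108 h and 1.78 to 2.76 at 132 h. Hmmr was highest of the 5 with CLA at both times, at 2.47 ± 0.29 (adjusted p = 1.55e-06) and 2.76 ± 0.18 (adjusted p = 3.47e-10). Stmn1 had 8.36, 7.42, 7.78, 7.03 and 7.29 CPM in controls at 60 h and 16.6, 11, 21.2, 7.4 and 16.9 with estrogen (0.94 ± 0.26, adjusted p = 0.0403). At 84 h it had 8.76, 7.59, 7.97, 10.3 and 8.57 and 16.3, 21.1, 20.3, 17.7 and 16.9 (1.08 ± 0.12, adjusted p = 4.02e-05). Estrogen-treated mice lay above all controls apart from mouse 4 at 60 h. Controls at 108 h had 10.9, 21.4, 9.3, 11.5 and 8.09, with control 2 apart from the rest, and CLA-fed mice had 34.8, 39.7, 37.7, 51 and 35 (1.70 ± 0.26, adjusted p = 3.04e-05). At 132 h the values were 12.8, 13.4, 12.1, 8.24 and 9.3 and 40.2, 44.3, 51, 41.5 and 43.1 (1.95 ± 0.12, adjusted p = 3.14e-10). Per kilobase of gene, in the authors' RPKM, Stmn1 was the most abundant of the 40 in controls (7.10 ± 2.65 over 20 libraries) and Prc1 the least (0.213 ± 0.0984).

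Cytokinesis genes were Kif23 (Mklp1) and Racgap1, which form centralspindlin, Prc1, which bundles midzone microtubules, Ect2, which activates RhoA, and Anln (anillin), a scaffold of the contractile ring. With estrogen at 60 h, 4 of the 5 rose, by 0.86 to 1.02, and Prc1 narrowly did not pass (1.02 ± 0.30, adjusted p = 0.0507). All 5 rose in the other 3 comparisons, by 0.90 to 1.21 with estrogen at 84 h, 1.46 to 1.91 with CLA at 108 h and 1.96 to 2.31 at 132 h. Racgap1 was the highest of the 5 with estrogen at both times. Prc1 had the lowest counts of the 40, down to 12 in a library.

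Ankle1 encodes an endonuclease with ankyrin repeats and a LEM domain. In controls it had the lowest mean CPM of the 40, with 1.31, 1.03, 1.15, 0.721 and 0.742 CPM at 60 h and 0.941, 0.89, 0.842, 1.74 and 1.24 at 84 h. Estrogen-treated mice had 2.37, 2.05, 4.43, 0.844 and 2.29 at 60 h and 3.12, 3.92, 3.33, 3.55 and 3.33 at 84 h. Mouse 4 at 60 h fell among the controls, and all others lay above them (rises of 1.26 ± 0.34, adjusted p = 0.033, and 1.59 ± 0.17, adjusted p = 3.49e-05). Its controls had 0.928, 2.07, 1.4, 1.48 and 0.755 at 108 h and 1.53, 1.56, 1.19, 1.17 and 1.76 at 132 h. CLA-fed mice had 7.23, 9.42, 9.2, 7.03 and 5.65 and 7.28, 8.77, 8.98, 6.99 and 7.47, with rises of 2.53 ± 0.33 (adjusted p = 4.79e-06) and 2.42 ± 0.18 (adjusted p = 1.53e-09). At 108 h only Birc5 rose more among the 40.

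The size of the rise was then compared between the treatments by testing the difference of the 2 changes. The treatments differ here also in time and, for estrogen, in the run of animals, which cannot be told apart from the agent. For all 40 members the change with CLA at 108 h was larger than that with estrogen at 60 h, and 17 passed the test, against 17.2% of all genes tested that were higher in this contrast. The median difference was 0.82, from 0.17 for Mybl2 to 1.52 for Birc5. Those 17 were Cdk1, Foxm1, Aurka, Ube2c, Aurkb, Birc5, Cenpa, Cenpe, Smc2, Smc4, Ncapd2, Tpx2, Hmmr, Tacc3, Racgap1, Anln and Ankle1. This count also moved with single libraries. It was 9, 10, 10, 11, 11 and 9 without control 1 or 3 at 60 h or control 1, 3, 4 or 5 at 108 h, and 27 without control 2 at 108 h. It was 11, 10 and 10 without CLA-fed mouse 2, 3 or 4, and 10 and 11 without estrogen-treated mouse 2 or 5. Between CLA at 132 h and estrogen at 84 h the difference was larger for all 40 again, and 38 passed, against 19.1% of all genes. The median was 1.04, from 0.18 for Mybl2 to 1.66 for Bub1, and Mybl2 and Cenpf were those that did not pass. Leaving out single libraries gave 35 to 39. Shares of all genes in the runs with a library left out are not given here for either pair.

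**Figure D4:**
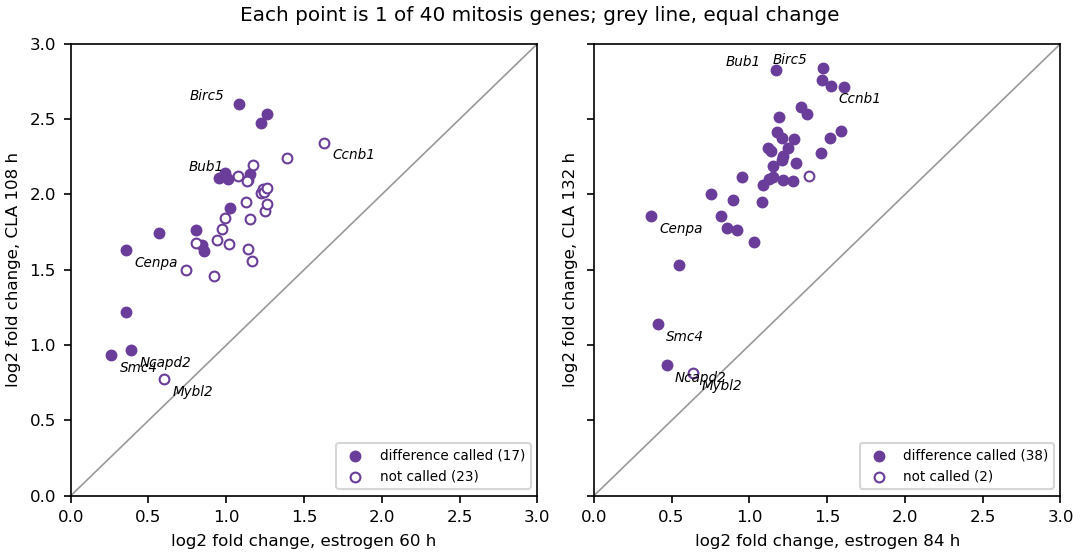
Log2 fold change of each of the 40 genes with estrogen (horizontal axis) and with CLA (vertical axis), for 60 h and 108 h at left and 84 h and 132 h at right; the grey line marks equal change and filled points passed the test of the difference. All 40 points lie above the line in both panels, with Mybl2 nearest to it.

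In levels, the lowest CLA library at 108 h was above the highest estrogen library at 60 h for 39 members, and the lowest at 132 h was above the highest estrogen library at 84 h for 39, Mybl2 being the exception both times. For 39 members every CLA library was above all 20 controls. No member had both estrogen groups wholly above all 20 controls. On the log2 scale the CLA change was 1.86 times the estrogen change at the median in the early pair and 1.88 times in the late pair. This ratio was lowest for Mybl2 (1.29 and 1.28) and highest for Cenpa (4.60 and 5.02).

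The spread of the rise among the 40 genes was wider with CLA in log2 units. The SD over members was 0.30 with estrogen at 60 h and 0.41 with CLA at 108 h, and it was 0.32 with estrogen at 84 h and 0.46 with CLA at 132 h. Relative to the mean rise the order was the other way, with coefficients of variation of 0.302 and 0.219 in the early pair and 0.284 and 0.218 in the late pair. Genes with a larger change under 1 treatment tended to have a larger change under the other. Across the 40 genes, which share libraries and are not independent, Pearson's r was 0.77 between estrogen at 60 h and CLA at 108 h and 0.82 between estrogen at 84 h and CLA at 132 h. It was 0.92 between the 2 estrogen times and 0.91 between the 2 CLA times.

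Between mice, the median SD of a member over 5 mice was 0.68 log2 units with estrogen at 60 h, against 0.28 in the controls of that time, and the treated SD was the larger for 40 of 40 members (51.5% of all genes). At 84 h the medians were 0.24 and 0.26, and the estrogen SD was the larger for 15 (43.1% of all genes). With CLA the medians were 0.27 and 0.21, against 0.40 and 0.29 in controls, and the treated SD was the larger for 8 members at each time (52.2% and 48.9% of all genes). Over all genes the median SD was 0.16 to 0.19 in every group. Estrogen-treated mouse 4 at 60 h was below the control mean for 35 members. Its mean over the 40 genes was 2.02 log2 CPM, while the other 4 had 2.93 to 3.71. In that library the luminal marker mean was 3.19 log2 CPM, above the range of its controls (-0.39 to 2.83), and its total of 40026800 counts was the highest of the 40.

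Markers of other cell types are given beside the members. In the test of the difference, CLA minus estrogen, 10 and 8 of 14 luminal markers were lower in the early and late pairs. Basal markers were lower for 6 and 7 of 8. Of all genes, 2568 of 17248 and 3247 of 17180 were lower. Macrophage markers were higher for 8 and 11 of 12, against 17.2% and 19.1% of all genes. These counts include the skin-rich libraries. Luminal epithelial markers rose with estrogen (10 of 14 at 60 h and 6 of 14 at 84 h), against 4.07% and 3.45% of all genes. Their summed level was 181 to 466 CPM with estrogen at 60 h, against 21.1 to 133 in controls. At 84 h it was 315 to 573 against 22.9 to 188. Krt19, a keratin of luminal cells, rose by 2.72 ± 0.60 (adjusted p = 0.0168) at 60 h and 2.54 ± 0.53 (adjusted p = 0.00936) at 84 h. Krt18, another luminal keratin, rose by 2.69 and 2.48, and the adhesion gene Epcam rose by 2.66 at 60 h and changed by 2.34 at 84 h (adjusted p = 0.0666). With CLA the summed luminal level was 28.7 to 266 at 108 h against 101 to 284 in controls, and 44.2 to 321 at 132 h against 41.1 to 263. At 108 h none of the 14 genes rose and 1 was lower by the test, against 24.9% and 23.0% of all genes. At 132 h the test gave 1 higher gene and 2 lower ones, against 27.0% and 29.0%. CLA-fed mouse 3 at 108 h had the lowest luminal mean of the 10 CLA libraries (0.56 log2 CPM) and a mitotic mean of 4.69. The lowest mitotic mean of that group, 4.14 in mouse 5, went with a luminal mean of 3.46. At 132 h mouse 1 was the lowest CLA-fed mouse for both means (1.10 and 4.40), and mouse 3 the highest for both (3.81 and 4.89). Whether the 2 means move together was not tested. Fewer luminal markers were called without the libraries rich in skin RNA. That setting also drops estrogen-treated mouse 5 at 60 h and mice 2, 3 and 5 at 84 h, so the groups are smaller. The parts of group size and of skin RNA in the lower counts were not tested. Without the skin-rich libraries 4 of 14 luminal markers rose with estrogen at 60 h and 0 at 84 h, against 2.06% and 1.6% of all genes. The list's median log2 change was 2.30 and 2.15, against 2.34 and 2.19 with all libraries. With CLA 0 were called without them, and the list's median at 132 h went from -0.15 to 1.35. Basal epithelial markers rose for 1 of 8 genes at each estrogen time, against 4.07% and 3.45% of all genes. They were lower for 4 and 5 of 8 with CLA, against 23.0% and 29.0% of all genes lower at 108 h and 132 h. The 6 skin-rich controls were the ones with high basal levels: their basal means were 4.98 to 6.53 log2 CPM, the other controls had 3.78 and 4.44 at 108 h and 3.43 and 3.55 at 132 h, and CLA-fed mice had 1.81 to 4.14. Without the skin-rich libraries 2 and 1 of 8 were lower, against 16.5% and 20.4% of all genes. Basal markers then had list medians of -0.13 and -0.05 in place of -1.55 and -1.51. Their summed level was 396 to 584 CPM with estrogen at 60 h against 263 to 368, 435 to 706 at 84 h against 219 to 390, 179 to 357 with CLA at 108 h against 323 to 872, and 184 to 303 at 132 h against 289 to 1240. Control 2 at 108 h, the control with the highest mitotic mean (3.21 log2 CPM), had a skin and hair marker mean of 5.93. Control 1 of the same group had a skin and hair marker mean of 4.34 and the lowest mitotic mean of that group, 2.32.

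Macrophage markers rose with CLA, 10 of 12 at 108 h and 11 of 12 at 132 h, against 24.9% and 27.0% of all genes. None rose with estrogen, against 4.07% and 3.45%. Without the skin-rich libraries 6 rose with CLA at 108 h and 11 at 132 h, against 19.2% and 21.4%. Lyz2 (lysozyme) rose by 1.45 ± 0.53 (adjusted p = 0.0329) and 2.61 ± 0.38 (adjusted p = 1.21e-05), the receptor gene Csf1r by 1.12 and 1.77, and the mannose receptor gene Mrc1 by 1.18 and 1.70. The list's summed level was 2730 to 4170 CPM with CLA at 108 h against 954 to 1760 in controls, and 2860 to 5390 at 132 h against 643 to 1160. With estrogen it was 855 to 2090 at 60 h against 867 to 1940, and 918 to 1080 at 84 h against 928 to 1540. Lymphocyte markers had 1 of 10 genes higher with CLA at 108 h and 2 of 9 lower at 132 h, both below the shares of all genes (24.9% higher and 29.0% lower), with 0 called at either estrogen time, and their summed level was between 6.75 and 119 CPM in all libraries, with Cd3d and Ms4a1 at 0 in some libraries. Fibroblast markers rose for 6 of 6 genes with CLA at 132 h, against 27.0% of all genes, and for 2 of 6 at 108 h, near the 24.9% of all genes. Adipocyte markers fell for 7 of 8 genes, and endothelial markers for 6 and 5 of 6, at the 2 CLA times, against 23.0% and 29.0% of all genes lower. With estrogen 1 of 6 endothelial markers fell at each time, against 2.42% and 1.97% of all genes, and 0 did so without the skin-rich libraries. No listed macrophage, adipocyte, endothelial or fibroblast marker was at 0 in any library, and Itgam has no row in the tables. The part of any of these cell types in the mitotic RNA was not tested. Skin and hair markers were lower with CLA for 15 of 18 tested at 108 h and 20 of 20 at 132 h. Of all genes, 23.0% and 29.0% were lower. Without the skin-rich libraries, which were picked by these same markers, 0 were lower at either time. The list medians were then 1.74 and 1.19 in place of -5.97 and -6.73. With estrogen 1 of 20 skin and hair markers rose at 84 h, against 3.45% of all genes. Their summed level was 9.37 to 3130 CPM in controls at 108 h and 8.33 to 3280 at 132 h, against 10.1 to 35.7 and 7.86 to 38.5 with CLA. Without the 10 libraries rich in skin RNA, 40 members rose with CLA at each time, against 19.2% and 21.4% of all genes. Without them 13 rose with estrogen at 60 h and 35 at 84 h, against 2.06% and 1.6%. In the test of the difference between CLA and estrogen, 7 and 34 passed without them. With all libraries 17.2% and 19.1% of all genes were higher in that test, and the share without them is not given here.

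**Figure D5:**
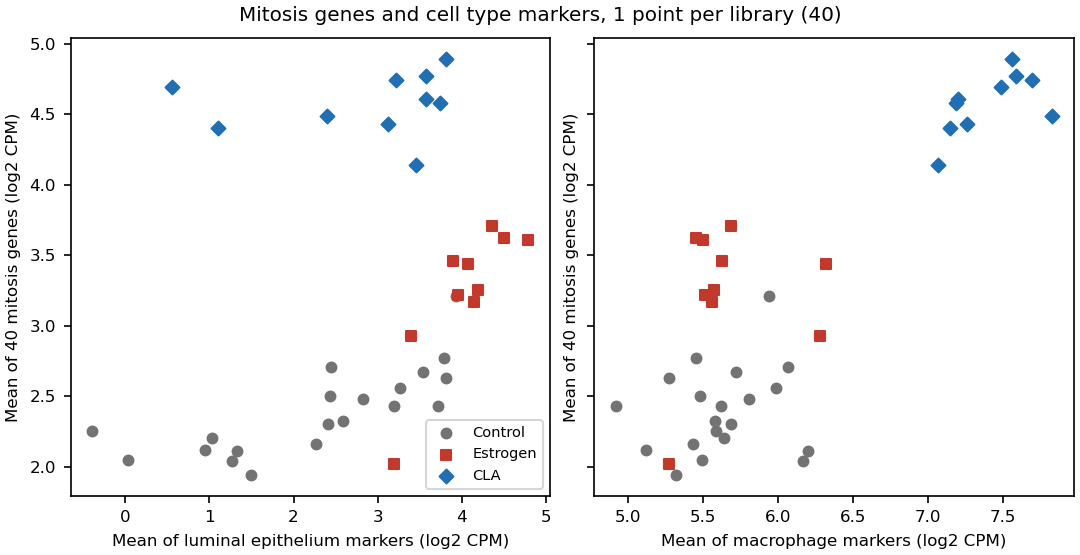
Mean of the 40 mitosis genes in each library (vertical axis, log2 CPM) against the mean of 14 luminal epithelial markers (left) and 12 macrophage markers (right), with 1 point per library and the 3 regimens by symbol. In the left panel the estrogen points lie between 3.19 and 4.79 and overlap controls and CLA points, which reach 3.93 and 3.81. In the right panel all 10 CLA points have a macrophage mean above 7, right of all others.

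Other genes of the cell cycle were listed beside the 40. Of 68 further mitotic genes, 40 and 50 rose with estrogen at 60 h and 84 h, against 4.07% and 3.45% of all genes. With CLA 67 rose at 108 h and 67 at 132 h, against 24.9% and 27.0%. The medians of the 68 were 0.82, 0.90, 1.66 and 1.89 in that order. Their largest estrogen rises were Pbk (1.85), Melk (1.51) and Depdc1a (1.5) at 60 h, and Cdc25c (1.81), Melk (1.55, adjusted p = 0.000165) and Cenph (1.5) at 84 h. With CLA they were Ndc80 (2.43), Dlgap5 (2.39) and Cdca5 (2.34) at 108 h, and Dlgap5 (2.75), Nuf2 (2.68) and Troap (2.60) at 132 h. Ncapd3, a subunit of the second condensin complex, was the only one of the 68 to fall, by 0.29 with CLA at 132 h, and it changed by -0.12 at 108 h, 0.04 with estrogen at 60 h and -0.06 at 84 h. Near the bottom with it were Ncaph2, from the same complex (0.26 and 0.17 with CLA, both rises), Fzr1 (0.21 and 0.17, both rises) and Ckap5 (-0.02 and -0.07 with estrogen).

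Genes of DNA replication and S phase had lower medians than the 40. Of 32, 16 and 18 rose with estrogen at 60 h and 84 h, against 4.07% and 3.45% of all genes. All 32 rose with CLA at 108 h and at 132 h, against 24.9% and 27.0%. The medians of the 32 were 0.55, 0.48, 1.26 and 1.37 in that order. Tk1 (thymidine kinase) had the largest value in all 4 comparisons, with 1.57, 1.45, 2.47 and 2.92 in the order estrogen 60 h, estrogen 84 h, CLA 108 h and CLA 132 h. Mcm10 and Mcm6, replication factors, followed with CLA: at 108 h they rose by 2.38 and 2.02, at 132 h by 2.50 and 2.44. The smallest changes with estrogen were those of Rfc4, Pola1 and Rfc3 at 60 h (0.17 to 0.23) and of Pola1, Rfc3 and Mcm7 at 84 h (0.09 to 0.18), and none of these passed. Cdc45 and Rfc4 were lowest with CLA, and both rose (0.56 and 0.63 at 108 h, 0.33 and 0.34 at 132 h).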

How the data were processed

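RNA-seq of 40 mammary glands was analysed from 2 kinds of deposited table. The authors deposited raw counts per gene and RPKM values per gene; the genome build was GRCm38, per the submitters' processing notes, while for aligner, counter, strand setting and annotation the entry is: not given in the sources used here. Libraries were made with a stranded poly-A kit, per the labels' protocols. The 40 members, their roles and all other lists were chosen with earlier results of these data known. Counts were tested with edgeR 4.0.16 (R 4.3.3; TMM, filterByExpr with a minimum count of 10, robust quasi-likelihood fit, Benjamini-Hochberg at 0.05), in 1 fit of the 60 h and 108 h groups, 1 of the 84 h and 132 h groups and 1 of all 40 libraries for differences between times. All 40 members passed the filter. Log2 CPM used a prior count of 2. All 40 members are named; those with values in every library, and those with full statistics (6 fixed genes, and the 3 largest and 3 smallest changes of each comparison), follow a rule. The alternatives comprised DESeq2 1.42.0, scaling by RLE or upper quartile, limma 3.58.1 on log2 RPKM, other filters, runs of animal numbers and libraries left out. The fits were tested on data simulated from the 60 h and 108 h libraries. Every simulated gene had the same spread between mice beyond counting noise, and no mouse was an outlier. A group such as estrogen at 60 h is therefore not covered by it. Replicate numbers follow accession order and pair no samples. No 2 libraries of a group agreed within counting noise. Of the 40, 9 overlap a protein-coding gene on the other strand, so reads of the pair may be mixed if strand was not used. Depth limits the precision of the rarest members most.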

Additional observations from a re-analysis of the deposited data

Results flagged for a closer look

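Of 104 groups of 5 values tested for a sample far from the others, 6 were marked, and chance marks about 1 in 20. Mki67 was 31.7 CPM in control 1 at 60 h, above the rest, and Mybl2 was 2.66 CPM in control 2 at 60 h, below the rest. Control 2 at 108 h stood above its group for Stmn1 (21.4 CPM), Birc5 (6.64 CPM) and Kif2c (3.95 CPM). Cdk1 was 40.5 CPM in CLA-fed mouse 3 at 132 h.

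The change with CLA at 108 h exceeded that with estrogen at 60 h, by edgeR's test of the difference, for 17 members. Among the genes shown by library, the log2 differences were 1.09 for Cdk1, 0.82 for Foxm1, 1.27 for Ankle1, 0.67 for Smc4, 1.52 for Birc5 and 1.27 for Cenpa. Between CLA at 132 h and estrogen at 84 h it did so for 38. Those differences were 0.88 for Mki67, 1.04 for Cdk1, 1.04 for Plk1, 0.84 for Foxm1, 0.87 for Stmn1, 0.83 for Ankle1, 0.73 for Smc4, 1.20 for Ccnb1, 1.37 for Birc5, 1.48 for Cenpa and 1.11 for Kif2c.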

How the results depend on the processing

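No result reversed under any alternative run. The 34 members that rose with estrogen at 60 h became 17 with no filter on low counts, 11 and 7 with limma on log2(RPKM + 0.1) and log2(RPKM + 1), 13 without the libraries rich in skin RNA, 5 with the 2 groups alone, and 6 to 39 with 1 library left out. The 17 members with a larger change under CLA in the early pair became 11 with upper-quartile scaling, 10 with no filter, 36 with log2(RPKM + 1), 7 without skin-rich libraries and 9 to 27 with 1 library left out. The single control difference over time became 2 with upper-quartile scaling, 3 with DESeq2, 2 with a stricter filter, 0 with no filter, 0 without skin-rich libraries and 0 to 3 with 1 library left out. Shares of all genes called in these alternative runs are not given here, apart from 2.06% higher with estrogen at 60 h without skin-rich libraries. With a pseudocount of 1 on RPKM the median log2 changes were 0.48 and 0.60 for estrogen at 60 h and 84 h and 1.33 and 1.5 for CLA at 108 h and 132 h. With a pseudocount of 0.1 they were 0.88, 1.149, 1.925 and 2.323 in that order. Control means of the members ran from 0.213 to 7.1 RPKM. The CLA median at 132 h was 2.47 without skin-rich libraries and 1.95 within the first run of animal numbers. A larger pseudocount shrinks log2 ratios by arithmetic, and the cause of the other shifts was not tested. The values within runs, and the marker lists without skin-rich libraries, were added after seeing the data. RPKM fits were not run for differences between times, whose tables were normalized separately, and no run term can be fitted for estrogen. No paired analysis was possible because replicate numbers are accession order and link no mice. Counts of 12 to 19 in the shallowest values of Prc1, Ccnb1, Ankle1 and Kif2c limit those genes.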
